A study of Mus musculus with 12 samples.

Results

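Mitosis genes encode the kinases, cyclins, motors and chromosome-bound proteins with which a cell builds a spindle, attaches its chromosomes and divides. A list of 40 such genes, chosen by symbol, was followed across 12 single-colour bead arrays of mouse cells, and every probe annotated to a listed gene was read. Of the 40 genes, 35 had a named probe and 29 had a probe detected on at least 2 arrays, and these 29 were tested among 10144 genes in all. Detection means a signal above the array's negative controls at p under 0.05. Aurkb, Ccnb1, Cenpf, Racgap1 and Mki67 were not analysed here. Bub1, Ccnb2, Cenpe, Ect2, Nek2 and Nuf2 each had 1 named probe, which was detected on 0 arrays, with raw intensities of 86.6 to 108.1 across the 12 arrays, so their levels were not measurable with these probes.

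The study asked whether neural stem cells can be grown from tissue outside the central nervous system. Its peripheral neural stem cells (pNSCs) were a line of embryonic limb origin, elpNSCs, and a line of adult lung origin, alpNSCs, and each was sampled at a late and an early stage. They were set against neural stem cells of the brain (Control-NSC) and Fibroblasts, with 2 arrays in each of the 6 groups. All groups carry the same label for strain, a mixture of C57BL/6, CD1 and C3H, with no mutation or transgene named. According to the methods, limb tissue came from mid-gestation embryos and lung tissue from young adult mice, and a line was grown from a picked cluster of cells that was usually clonal, so each pNSC line stands for few founder cells. The paper describes its array profiles of limb and lung lines as those of cells obtained with a low-pH medium, while the labels mention no pH. The labels also give neither the passages behind late and early nor the tissue of the Fibroblasts. The methods call the replicates biological without saying whether these were other cultures, animals or derivations, so p-values cover the spread between these arrays only.

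A cell enters mitosis when cyclin-dependent kinase 1, bound to a cyclin, is switched on by CDC25 phosphatases, and Polo-like and Aurora kinases then drive centrosome separation and spindle assembly. The spindle checkpoint holds the anaphase-promoting complex inactive until all kinetochores are attached, after which securin and cyclins are destroyed and separase opens the cohesin rings. Most of these transcripts accumulate only in G2 and M phase, so in bulk RNA they follow how many cells of a culture are cycling. A smaller share of dividing cells and less transcript in each dividing cell cannot be told apart on these arrays. Levels below are background-corrected, quantile-normalized intensities on a log2 scale, and a difference of 1 is a doubling. Such levels depend on the probe and are compared here between groups, not between genes.

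Each array detected 11801 to 12836 of its 25697 probes, and replicate arrays correlated at r = 0.990 (elpNSCs-early) to 0.996. The elpNSCs-early arrays had the lowest median raw intensities, 98.1 and 102.7, against 103.8 to 115.7 on the other arrays. All 7 neural stem cell markers tested were detected on every pNSC and Control-NSC array, and 2 or 3 of them on the Fibroblasts arrays. Of 8 fibroblast markers, all were detected on the Fibroblasts arrays, 0 to 3 on a pNSC array and 2 on each Control-NSC array. The collagen genes Col1a1, Col1a2 and Col3a1 were not detected on any pNSC or Control-NSC array.

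The groups formed a ladder in the mean level of the 29 genes. That mean was 8.36 and 8.36 on the 2 elpNSCs-late arrays, 7.46 and 7.35 in elpNSCs-early, 8.45 and 8.52 in alpNSCs-late, 7.81 and 7.85 in alpNSCs-early, 8.68 and 8.72 in Control-NSC and 6.12 and 6.11 in Fibroblasts. No array of one group fell within the range of another group, with the late groups of the 2 lines nearest to each other. All 23 genes detected on a Fibroblasts array were lowest there by group mean, and the other 6 were detected on neither. Of the 29, 28 had their lowest neural stem cell level in elpNSCs-early, the exception being Kif20a, whose readings lay near background throughout and have no order, and 22 had their highest level in Control-NSC. The colour map of levels relative to Control-NSC shows the pattern for each gene and array.

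**Figure D1:**
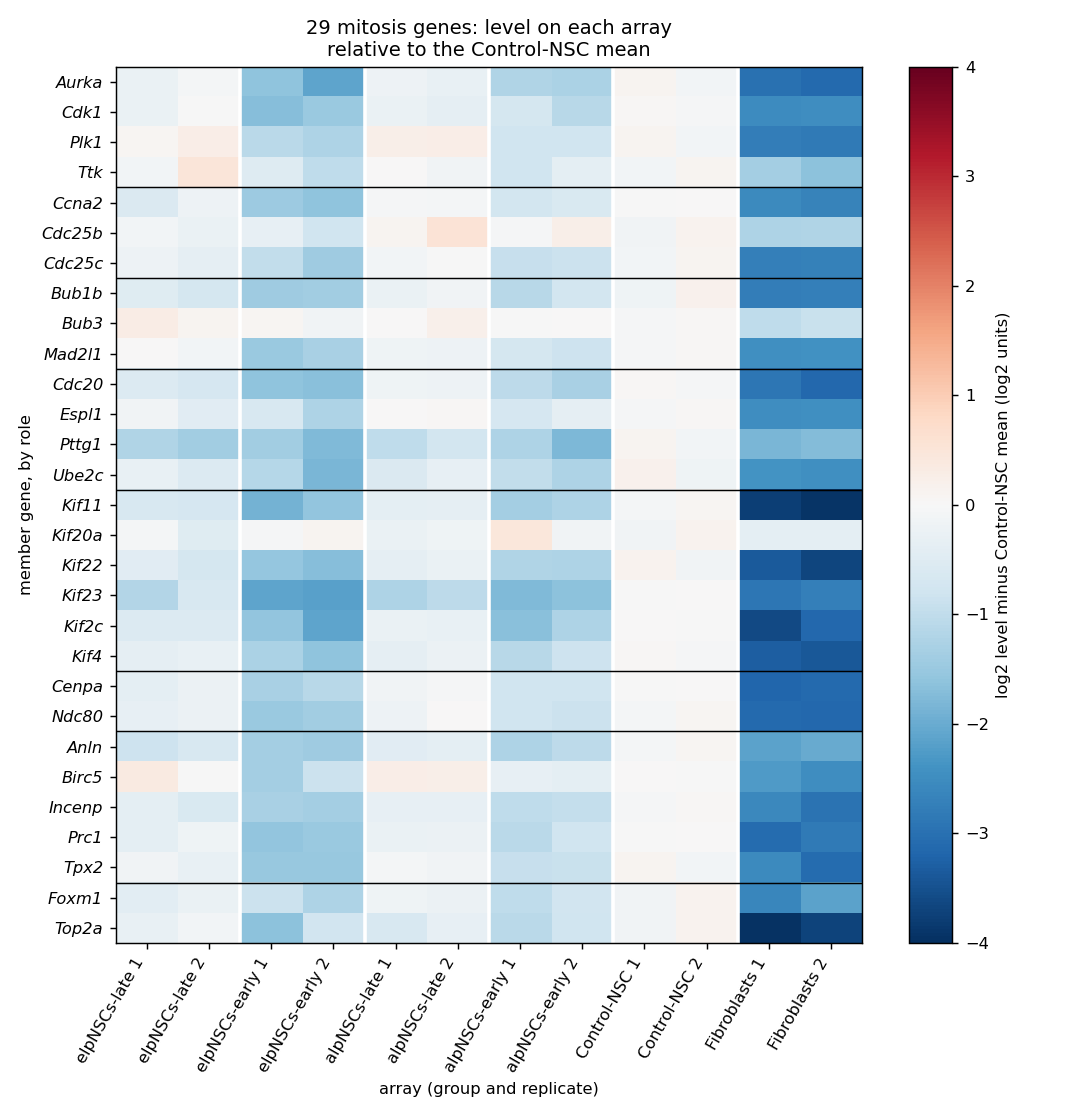
Level of each of the 29 mitosis genes (rows, ordered by role, black lines between roles) on each of the 12 arrays (columns, 2 per group), as the log2 level minus that gene's Control-NSC mean. Blue is lower and red is higher than Control-NSC. The 4 early pNSC arrays and the Fibroblasts arrays are blue for nearly all genes, while the late arrays are paler, with Kif23 and Pttg1 the bluest genes on the alpNSCs-late arrays.

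In the limb line, late cultures had more mitotic transcript than early ones across almost every role. Of the 29 genes, 25 were higher in elpNSCs-late at an adjusted p under 0.05 (limma, Benjamini-Hochberg over all genes), against 11.7% of all genes, and 0 were lower, against 12.1%. At an unadjusted p under 0.05 the counts were the same, 25 higher and 0 lower. Counts at this looser threshold, here and below, come without a share of all genes and so have no background to be read against. The median change was 1.04 on the log2 scale, where the median of all genes was at 0. None of the 25 had overlapping arrays, but neither did the 4 genes that did not pass, so this does not set the 25 apart. The share of all genes without overlap is not given here.

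All 4 tested mitotic kinases rose. Aurka, the Aurora kinase of centrosomes and spindle poles, read 9.45 and 9.62 in elpNSCs-late, against 8.08 and 7.60 in elpNSCs-early. That was the largest change among the 29, 3.23-fold (log2 1.69 ± 0.16 SE, adjusted p = 1.54e-05). Cdk1, the kinase that starts mitosis, read 9.66 and 9.92 in elpNSCs-late and 8.22 and 8.45 in elpNSCs-early, a 2.75-fold rise (adjusted p = 3.95e-05). Plk1, the Polo-like kinase, read 10.60 and 10.79 late and 9.45 and 9.30 early, a 2.49-fold rise (adjusted p = 1.73e-05). In each of these the late arrays lay more than 1 log2 unit above the early ones. Ttk, the checkpoint kinase also called MPS1, was dimmer and more spread, at 5.75 and 6.34 late and 5.34 and 4.83 early (log2 0.96 ± 0.22 SE, adjusted p = 0.00785).

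Of the cyclin and CDC25 genes, Ccna2 (cyclin A2) and Cdc25c rose in the limb line, by 1.13 and 0.92 on the log2 scale. Cdc25b, which acts earlier at the centrosome, changed by 0.37 ± 0.19 (SE) and did not pass the test (adjusted p = 0.18). The spindle checkpoint was split. Mad2l1, which encodes the MAD2 protein that blocks CDC20, read 10.16 and 10.03 in elpNSCs-late and 8.67 and 8.86 in elpNSCs-early, a 2.52-fold rise (adjusted p = 1.06e-05), and Bub1b (BUBR1) rose by 0.82 on the log2 scale. Bub3, a WD-repeat partner of both BUB kinases, read 8.08 and 7.89 late and 7.88 and 7.66 early. Its arrays did not overlap, but the difference of 0.22 ± 0.13 (SE) did not pass (adjusted p = 0.256).

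Among genes of anaphase and mitotic exit, Cdc20, the activator of the anaphase-promoting complex, read 10.98 and 10.84 late and 9.90 and 9.86 early, a 2.05-fold rise (adjusted p = 0.000168). Ube2c, the ubiquitin-conjugating enzyme of that complex, rose by 1.07 and Espl1 (separase) by 0.64 on the log2 scale. Pttg1 (securin), the inhibitor of separase, stayed near background at 5.0 and 4.79 late and 4.79 and 4.43 early, with 1 early array not detected (adjusted p = 0.331). The other 3 tested genes of this role all passed.

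Of 6 kinesin motors, 5 rose in the limb line. Kif2c (MCAK), which takes microtubules apart at centromeres, read 8.68 and 8.70 late and 7.67 and 7.13 early, a 2.44-fold rise (adjusted p = 0.000731). Kif23, the centralspindlin motor of the midzone, read 7.08 and 7.60 late and 6.13 and 6.09 early (2.35-fold, adjusted p = 0.000174). Kif11 (Eg5), which pushes spindle poles apart, read 7.96 and 7.92 late and 6.72 and 7.02 early (2.11-fold, adjusted p = 0.000111). The chromokinesins Kif4 and Kif22 rose by 1.13 and 1.04 on the log2 scale, so these 5 motors moved within a narrow span. Kif20a was detected on neither late array and its difference of -0.32 did not pass (adjusted p = 0.268).

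Both tested centromere genes and all 5 genes of the chromosomal passenger complex, the spindle and cytokinesis rose as well. Ndc80, which holds microtubules at the outer kinetochore, read 8.17 and 8.26 late and 7.01 and 7.09 early (2.24-fold, adjusted p = 3.15e-05), and Cenpa, the centromeric histone H3 variant, rose by 0.89 on the log2 scale. Tpx2, the activator of Aurora A on the spindle, read 8.84 and 8.71 late and 7.48 and 7.48 early (2.45-fold, adjusted p = 0.000107). Prc1, which bundles midzone microtubules, read 11.71 and 11.92 late and 10.51 and 10.59 early (2.40-fold, adjusted p = 4.81e-05). These 3 genes repeated well between replicates. Birc5 (survivin), a passenger subunit, read 10.21 and 9.83 late and 8.49 and 9.0 early, with a wider gap inside each group (2.41-fold, adjusted p = 0.000251). Incenp, the scaffold of the passenger complex, rose by 0.82 and Anln, the anillin of the cleavage furrow, by 0.65 on the log2 scale.

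Foxm1, a transcription factor that activates many G2 and M phase genes, read 7.28 and 7.42 in elpNSCs-late and 6.84 and 6.46 in elpNSCs-early, a rise of 0.70 on the log2 scale (adjusted p = 0.0155). Top2a, which untangles replicated DNA, read 9.35 and 9.51 late and 8.0 and 8.86 early (2.00-fold, adjusted p = 0.00949). The early Top2a arrays were 0.86 apart, the widest replicate gap of any of the 29 genes. Both calls depended on the arrays that share the estimate of spread, since with the limb arrays alone the adjusted p was 0.0644 for Foxm1 and 0.0804 for Top2a, and Foxm1 also missed with the deposited log2 values (adjusted p = 0.0754).

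**Figure D2:**
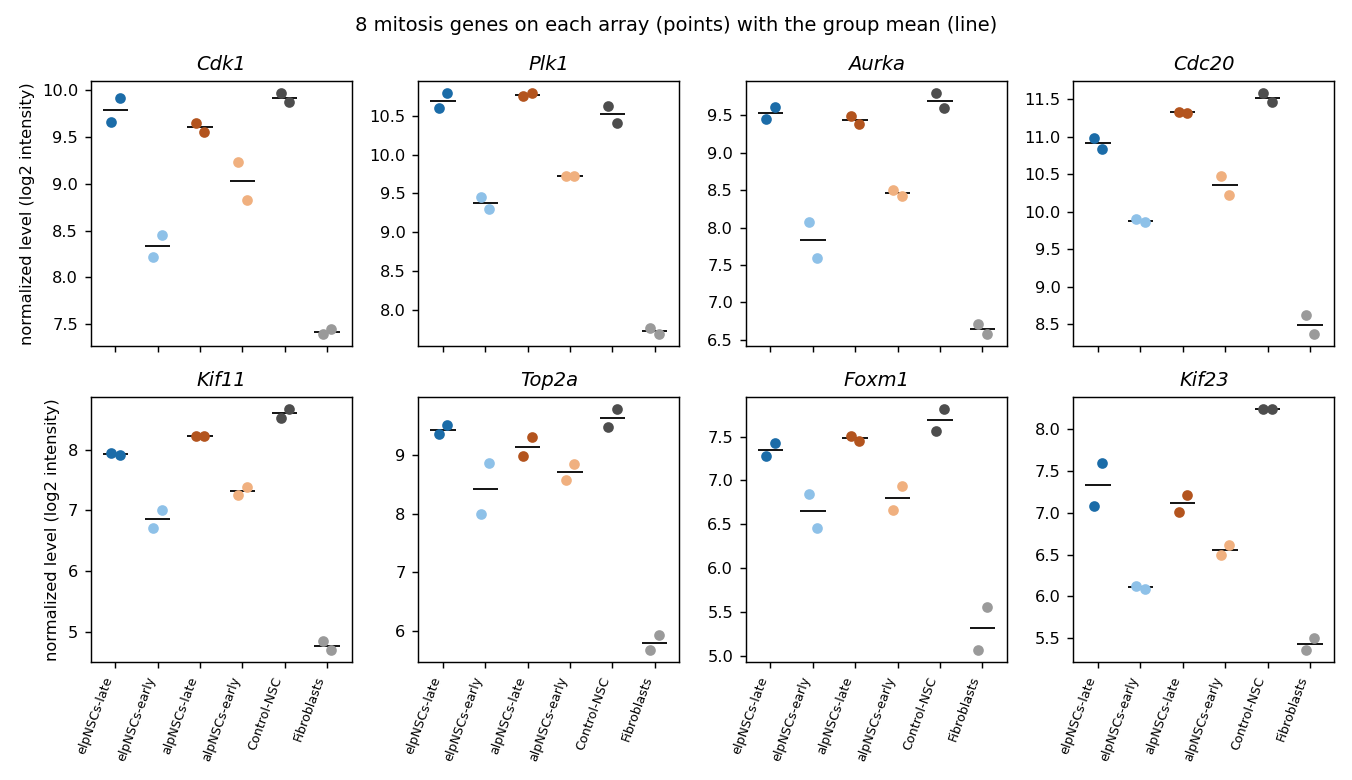
Normalized log2 intensity of 8 mitosis genes on each array (points, 2 per group) with the group mean (line), each gene on its own axis, which does not start at 0. For every gene shown the late arrays of each line lie above its early arrays, and both Fibroblasts arrays are lowest.

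Genes that move together through the cell cycle often carry short shared elements near their start sites. The cell cycle genes homology region (CHR) is the element through which the DREAM complex and B-MYB act in mouse and human cells, and it often lies close to a CCAAT box, which binds NF-Y. Windows of 300 bases around the start, from 250 before to 50 after, were taken from RefSeq (build GRCm38.p6) and matched 23 of the 29 tested genes. Stretches from 100 bases before to 50 bases after the start are shown because they let the shared letters be compared. They belong to Aurka, Plk1 and Cdc20, which rose in both lines, to Cdk1, which rose in the limb line, to Kif23, which was low in every pNSC group, and to Mad2l1, which rose in both lines and held none of the letters searched. Capitals mark the CHR letters TTTGAA and the CCAAT letters, or their reverse complements, read 5′ to 3′ on the strand of the gene.
Aurka, chr2:172370521-172370670, minus strand: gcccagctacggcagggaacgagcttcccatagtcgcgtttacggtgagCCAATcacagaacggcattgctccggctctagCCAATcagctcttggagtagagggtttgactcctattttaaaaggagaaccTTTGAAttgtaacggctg
Cdk1, chr10:69352863-69353012, minus strand: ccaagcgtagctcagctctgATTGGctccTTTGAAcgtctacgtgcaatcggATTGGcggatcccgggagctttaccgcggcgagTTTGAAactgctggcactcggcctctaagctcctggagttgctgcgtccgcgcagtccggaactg
Plk1, chr7:122159335-122159484, plus strand: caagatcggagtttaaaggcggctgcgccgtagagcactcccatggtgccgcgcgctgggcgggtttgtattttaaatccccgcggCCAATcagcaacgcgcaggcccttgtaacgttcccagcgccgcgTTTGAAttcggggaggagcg
Cdc20, chr4:118437294-118437443, minus strand: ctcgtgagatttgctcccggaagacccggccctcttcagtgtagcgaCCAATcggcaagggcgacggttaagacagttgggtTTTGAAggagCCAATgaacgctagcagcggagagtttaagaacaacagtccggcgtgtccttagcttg
Kif23, chr9:61946750-61946899, minus strand: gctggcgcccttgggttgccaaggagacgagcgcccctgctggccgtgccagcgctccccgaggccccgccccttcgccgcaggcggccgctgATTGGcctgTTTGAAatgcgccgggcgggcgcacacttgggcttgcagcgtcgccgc
Mad2l1, chr6:66535121-66535270, plus strand: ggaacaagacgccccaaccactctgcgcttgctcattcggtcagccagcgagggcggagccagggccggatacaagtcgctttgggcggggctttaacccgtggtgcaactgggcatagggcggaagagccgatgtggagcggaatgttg

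On either strand, TTTGAA occurred near the start of 19 of the 23 genes (82.6%), against 28 of 68 other tested mitosis genes (41.2%) and 20.2% of all 27025 genes of the table. A gene with more than 1 start in the table, such as Bub3 and Prc1, was counted if any of its windows matched. With TTCGAA included, 20 of 23 (87.0%) held a CHR match, against 21.7% of all genes of the table, and the 3 without one were Birc5, Mad2l1 and Pttg1. CCAAT occurred in 17 of 23 (73.9%), against 36 of 68 other mitosis genes (52.9%) and 41.1% of all genes of the table. The E2F-type letters TTCCCGC and TTTGGCGC occurred in 0 of 23, against 17 of 68 other mitosis genes (25%) and 5.8% of all genes of the table. None of the 5 strings searched contains another, and a match describes the sequence and is not a binding site. Bub3 and Cdc25b, which passed the late-early test in neither line, also held a CHR match and a CCAAT.

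In the lung line many of these genes also rose, with smaller steps. In alpNSCs-late 17 of the 29 were higher than in alpNSCs-early at an adjusted p under 0.05, against 2.11% of all genes, and 0 were lower, against 2.72%. At an unadjusted p under 0.05, for which the share of all genes is not given here, the counts were 25 higher and 0 lower. The median change was 0.68 on the log2 scale, with all genes again at 0. The arrays of the 17 did not overlap, but neither did those of 10 of the 12 genes not called. All 17 were among the 25 of the limb line, which is 68.0% of those 25. With 25 of the 29 called in the limb line, most of the 17 had to fall among them. The overlap of calls over all genes is not given here. The 2 comparisons share no array, but they share the normalization and the estimate of spread. The count was 10 without alpNSCs-early replicate 1 or without alpNSCs-late replicate 1, and 7 without alpNSCs-late replicate 2, which was the lowest.

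The largest rise in the lung line was that of Kif2c, which read 8.98 and 8.94 in alpNSCs-late and 7.57 and 8.02 in alpNSCs-early (2.24-fold, adjusted p = 0.00479). Plk1 read 10.75 and 10.79 late and 9.73 and 9.72 early (2.07-fold, adjusted p = 0.000232). Aurka read 9.49 and 9.38 late and 8.5 and 8.42 early (1.97-fold, adjusted p = 0.0025). These 3 genes each came close to doubling or passed it. Cdc20 read 11.34 and 11.32 late and 10.48 and 10.22 early (1.97-fold, adjusted p = 0.000777). Kif11 read 8.22 and 8.23 late and 7.25 and 7.38 early (1.88-fold, adjusted p = 0.00112). Kif22, whose product ties chromosome arms to microtubules, read 10.48 and 10.58 late and 9.63 and 9.60 early (1.88-fold, adjusted p = 0.00293).

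Cdc25c, the phosphatase that switches on CDK1, read 7.25 and 7.37 in alpNSCs-late and 6.45 and 6.52 in alpNSCs-early (1.77-fold, adjusted p = 0.00572). Tpx2 read 8.93 and 8.86 late and 8.06 and 8.11 early (1.75-fold, adjusted p = 0.00866). Ndc80 read 8.28 and 8.49 late and 7.67 and 7.64 early (1.66-fold, adjusted p = 0.00284). Each pair of replicates in these 3 genes lay within 0.21 of each other, less than the step between the stages. The other called genes were Anln, Bub1b, Ccna2, Cenpa, Incenp, Kif4, Mad2l1 and Prc1, with log2 changes from 0.57 (Mad2l1) to 0.71 (Anln and Bub1b). The call was lost with the deposited log2 values for Tpx2 (adjusted p = 0.0614) and Bub1b (0.0611), and for Bub1b also with the lung arrays alone (0.0523).

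Cdk1 was among the genes past the test in the limb line that missed it in the lung line. It read 9.65 and 9.56 in alpNSCs-late and 9.23 and 8.83 in alpNSCs-early, a difference of 0.58 ± 0.15 (SE, adjusted p = 0.0522). Top2a read 8.99 and 9.30 late and 8.57 and 8.84 early (0.44 ± 0.24, adjusted p = 0.426). Foxm1 read 7.51 and 7.45 late and 6.66 and 6.94 early, with a difference of 0.68 ± 0.18 close to that of the limb line (adjusted p = 0.0577). In all 3 the late arrays lay above the early ones, and some settings moved the call: Cdk1 passed with detection p under 0.01 (adjusted p = 0.0484), without background correction (0.0334), with offset 50 (0.0381) and with a trended robust prior (0.0353), and Foxm1 without background correction (0.0303), with offset 50 (0.0359) and with the lung arrays alone (0.0381). Birc5, Espl1, Kif23, Ttk and Ube2c likewise missed the test, with log2 differences of 0.53 to 0.65, and so did Bub3, Cdc25b, Kif20a and Pttg1, which had missed it in the limb line.

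**Figure D3:**
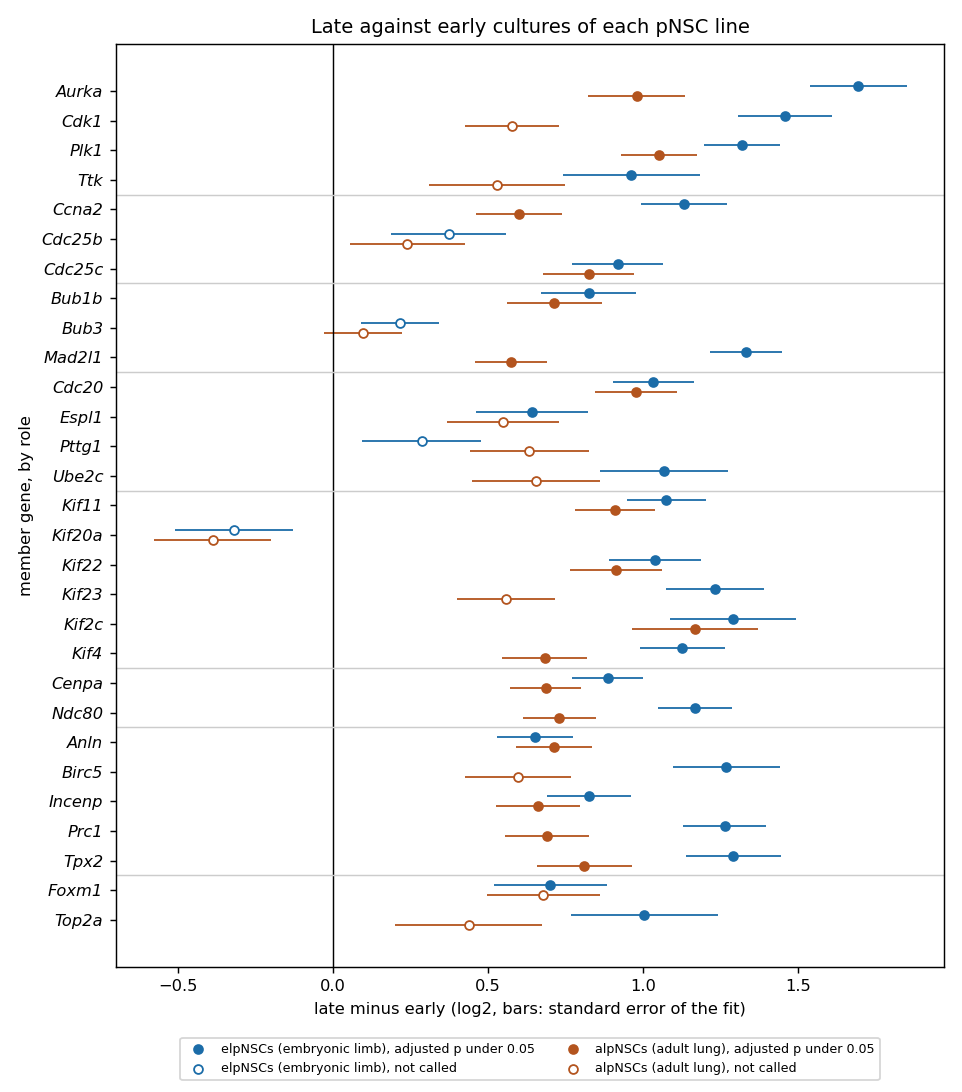
Late minus early log2 difference of each of the 29 mitosis genes, ordered by role, in elpNSCs (blue) and alpNSCs (orange), with the standard error of the fit as bars; filled points passed an adjusted p of 0.05. All points but those of Kif20a lie above 0, and most limb points lie to the right of the lung points.

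The difference between the lines in the late-early change was tested directly as alpNSCs minus elpNSCs. For 26 of the 29 genes the late level was higher in both lines and the step smaller in the lung line. But only 2 passed the test, against 2.47% of all genes in that direction, and 10 did at an unadjusted p under 0.05. The share of all genes with the pattern of the 26 is not given here. As 28 of the 29 genes had their lowest neural stem cell level in the same elpNSCs-early arrays, the 26 are not independent observations. A larger change in the lung line passed for 0 genes, against 3.18% of all genes, and for 0 at an unadjusted p under 0.05 (limma). Mad2l1 rose by 0.57 in alpNSCs and by 1.33 in elpNSCs, a difference of -0.76 ± 0.16 (SE, adjusted p = 0.0185). Its arrays read 9.98 and 9.95 in alpNSCs-late and 9.46 and 9.32 in alpNSCs-early. Cdk1 differed by -0.88 ± 0.21 (adjusted p = 0.0334). The other 2 kept Cdk1 probes were dim, each detected on 5 arrays with raw intensities up to 127.3, and were not called (adjusted p = 0.338 and 0.362). Neither gene passed with the deposited log2 values (adjusted p = 0.0914 for Cdk1 and 0.0525 for Mad2l1), nor without alpNSCs-early replicate 1, alpNSCs-late replicate 1 or alpNSCs-late replicate 2. Leaving out any array but elpNSCs-early replicate 2 or alpNSCs-early replicate 2 ended at least 1 of the 2 calls, and 4 genes passed without elpNSCs-early replicate 2.

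At the late stage none of the 29 genes passed the test between the lines by its brightest probe. Between alpNSCs-late and elpNSCs-late 0 differed at an adjusted p under 0.05 (limma), where 10.9% of all genes did, and 7 were higher and 0 lower in alpNSCs-late at an unadjusted p under 0.05. The median difference was 0.13, and 0.025 with median scaling. The 95% interval was -0.52 to 0.15 for Cdk1, -0.19 to 0.35 for Plk1 and -0.43 to 0.25 for Aurka on the log2 scale, so differences of that size are not excluded. Cdc20 had an interval of 0.13 to 0.70 and an adjusted p of 0.0703, and 1 of its 4 kept probes entered this test. In the limma fit on all kept probes, a dim further Cdk1 probe was at least 1.32-fold lower in alpNSCs-late (adjusted p = 0.0383). The other further Cdk1 probe was not called (0.259).

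At the early stage some did. In alpNSCs-early 13 of the 29 genes were higher than in elpNSCs-early, against 5.84% of all genes. None was lower (0, against 6.65% of all genes, and 0 at an unadjusted p under 0.05). The median difference was 0.42, and 0.28 without background correction. Ccna2, whose cyclin partners CDK2 and CDK1, read 6.33 and 6.46 in alpNSCs-early and 5.62 and 5.46 in elpNSCs-early (1.81-fold, adjusted p = 0.00122). Birc5 read 9.54 and 9.46 in alpNSCs-early and 8.49 and 9.0 in elpNSCs-early (1.69-fold, adjusted p = 0.0117). Neither gene had overlapping arrays. The others were Aurka, Cdc20, Cdc25b, Cdk1, Cenpa, Kif11, Kif4, Mad2l1, Ndc80, Prc1 and Tpx2, with log2 differences of 0.42 (Cenpa) to 0.70 (Cdk1). The limma call of Cdc25b was lost with the deposited log2 values (adjusted p = 0.0738), offset 50 (0.0703) and no background correction (0.104). It was also lost with no detection filter (0.0838), in the fit on all kept probes (0.0519) and with these 4 arrays alone (0.142). In the limma fit on all kept probes, further probes of Cdc20 (adjusted p = 0.135 to 0.255) and Kif4 (0.153 and 0.436) were not called. The dim further probes of Cdk1 also missed (0.686 and 0.838), while 1 further Birc5 probe passed (0.0415) and another missed (0.0502). The count of 13 rests on 1 probe for each gene. This count was unsteady, at 6 without alpNSCs-early replicate 1, 5 without alpNSCs-early replicate 2, 6 with the deposited log2 values and 1 with these 4 arrays alone.

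Against brain neural stem cells, the early pNSC groups had lower levels of most of the 29 genes and the late groups of few. In elpNSCs-early 27 were lower than in Control-NSC, against 12.5% of all genes, with a median of -1.40. In alpNSCs-early 23 were lower, against 9.14%, with a median of -0.91. In elpNSCs-late 8 were lower, against 7.79%, with a median of -0.30, and in alpNSCs-late 3 were lower, against 6.53%, with a median of -0.21. No gene was higher than in Control-NSC in any of these 4 comparisons (0 in each also at an unadjusted p under 0.05, limma). Of all genes, 7.52% were called higher in elpNSCs-late, 13.5% in elpNSCs-early, 5.88% in alpNSCs-late and 9.02% in alpNSCs-early. The 4 comparisons share the same 2 Control-NSC arrays, so an error in those arrays would enter all of them. Without Control-NSC replicate 1, 5 genes were lower in elpNSCs-late and 1 in alpNSCs-late. Without elpNSCs-late replicate 2 the count for that group was 5, and without alpNSCs-late replicate 1 it was 1 for alpNSCs-late.

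The genes furthest below Control-NSC in elpNSCs-early were those of the spindle motors and Aurka. Kif23 read 6.13 and 6.09 in elpNSCs-early, against 8.25 and 8.25 in Control-NSC, 4.41-fold lower (log2 -2.14 ± 0.16 SE, adjusted p = 1.18e-06). Aurka read 8.08 and 7.60 in elpNSCs-early, against 9.80 and 9.59 in Control-NSC, 3.63-fold lower (adjusted p = 3.46e-06). Kif2c read 7.67 and 7.13 in elpNSCs-early, against 9.26 and 9.23 in Control-NSC, 3.58-fold lower (adjusted p = 3.32e-05). Bub3 and Kif20a were the 2 genes that did not pass here.

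The log2 difference of Cdk1 from Control-NSC, where it read 9.97 and 9.87, was -0.13 in elpNSCs-late (adjusted p = 0.677), -1.59 in elpNSCs-early (adjusted p = 9.85e-06), -0.32 in alpNSCs-late (adjusted p = 0.244) and -0.89 in alpNSCs-early (adjusted p = 0.00112). Plk1 was also below Control-NSC in the early groups alone. It differed from Control-NSC, where it read 10.63 and 10.41, by 0.17 in elpNSCs-late (adjusted p = 0.428) and by 0.25 in alpNSCs-late (adjusted p = 0.246), and by -1.14 in elpNSCs-early (adjusted p = 2.65e-05) and -0.79 in alpNSCs-early (adjusted p = 0.000549). A p that misses the threshold does not show that the late groups match brain cells. The Cdk1 values rest on its brightest probe. Its dim further probes were called in neither early group (adjusted p = 0.834 and 0.0699 in elpNSCs-early, 0.482 and 0.178 in alpNSCs-early, limma).

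Anln, Kif23 and Pttg1 were lower than Control-NSC in all 4 pNSC groups. Kif23 read 7.08 and 7.60 in elpNSCs-late, 6.13 and 6.09 in elpNSCs-early, 7.01 and 7.21 in alpNSCs-late and 6.49 and 6.62 in alpNSCs-early, against 8.25 and 8.25 in Control-NSC. Even the highest pNSC array was more than 0.6 below the brain arrays. In the late groups Kif23 was 1.88-fold lower (elpNSCs, adjusted p = 0.0017) and 2.20-fold lower (alpNSCs, adjusted p = 0.000331). Pttg1 read 5.0 and 4.79, 4.79 and 4.43, 5.18 and 5.46 and 4.96 and 4.41 in the same 4 groups, against 6.31 and 6.07 in Control-NSC. It was 2.45-fold lower in elpNSCs-late (adjusted p = 0.000518) and 1.83-fold lower in alpNSCs-late (adjusted p = 0.00873), and its pNSC arrays lay close to background. The alpNSCs-late call for Pttg1 was lost with the deposited log2 values (adjusted p = 0.210). Anln read 9.62 and 9.82, 9.10 and 9.04, 10.01 and 10.06 and 9.22 and 9.41 in the 4 groups, against 10.38 and 10.54 in Control-NSC. In alpNSCs-late it was 1.35-fold lower (adjusted p = 0.0393), and that call was lost with the deposited values (adjusted p = 0.0832), with median scaling (adjusted p = 0.123) and in the fit on all kept probes (adjusted p = 0.0523).

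The other genes lower in elpNSCs-late were Kif11, Cdc20, Bub1b, Kif22 and Incenp, with log2 differences of -0.66 (Kif11) to -0.50 (Incenp). With the deposited log2 values the calls were lost for Bub1b (adjusted p = 0.0608), Incenp (0.0921) and Kif22 (0.0585). Those of Bub1b (0.0911) and Incenp (0.0962) were also lost with median scaling, and those of Bub1b (0.0586) and Kif22 (0.0525) with only the arrays compared. Kif11 read 8.53 and 8.68 and Cdc20 11.58 and 11.46 in Control-NSC, and both late limb arrays were below both brain arrays for each. Averaged over the 4 pNSC groups, 23 of the 29 genes were lower than Control-NSC, against 9.75% of all genes, with a median of -0.70. None was higher (0, against 9.93% of all genes, and 0 at an unadjusted p under 0.05). The arrays of 14 of the 23, and of 0 of the other 6 genes, did not overlap with Control-NSC. The share of all genes without overlap is not given here. The 6 genes not called were Bub3, Cdc25b, Kif20a, Birc5, Ttk and Espl1. For Birc5 this depended on the probe. In the limma fit on all kept probes, a further Birc5 probe was lower (log2 -0.64, adjusted p = 0.0375) and another missed (0.120). The largest mean differences were those of Kif23 (-1.47), Pttg1 (-1.31), Kif2c (-1.03), Kif11 (-1.02) and Kif22 (-0.94), so 4 of the 5 were kinesins.

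Mitosis genes were far below the neural stem cell groups in Fibroblasts. In Control-NSC 28 of the 29 were higher than in Fibroblasts, against 34.7% of all genes, and in the mean of the pNSC groups 28 were higher, against 39.6%. The medians were 2.75 and 2.03 on the log2 scale, where those of all genes were 0.11 and 0.13. With genes not detected in Fibroblasts set at their bound, the medians were 2.75 and 1.97, and without background correction the pNSC median was 1.34. Kif20a was the gene that did not pass, and 0 genes were lower in either comparison, against 27.2% and 28.2% of all genes. At an unadjusted p under 0.05 also 0 were lower. Both counts include Ccna2, Cdc25b, Espl1, Pttg1 and Ttk, which were detected on 0 Fibroblasts arrays. They entered the test only through the neural stem cell groups, so their direction was set by the filter. The 23 genes detected on a Fibroblasts array were all called higher in both comparisons. In this contrast a large part of the transcriptome differed, so the high counts stand on a high background.

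Kif11 read 8.53 and 8.68 in Control-NSC and 4.84 and 4.70 in Fibroblasts (14.3-fold, log2 3.84 ± 0.13 SE, adjusted p = 5.63e-11). Top2a read 9.48 and 9.78 in Control-NSC and 5.68 and 5.93 in Fibroblasts (14.2-fold, adjusted p = 2.17e-08). Kif22 read 10.98 and 10.72 in Control-NSC and 7.5 and 7.19 in Fibroblasts (11.3-fold, adjusted p = 5.15e-10). These 3 genes separated the cell types most, while Bub3, at 7.73 and 7.84 in Control-NSC and 6.77 and 6.89 in Fibroblasts, separated them by 1.94-fold (adjusted p = 2.63e-05). Foxm1 read 7.56 and 7.82 in Control-NSC and 5.07 and 5.56 in Fibroblasts (5.18-fold, adjusted p = 1.7e-07).

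Ccna2, Cdc25b, Espl1, Kif20a, Pttg1 and Ttk were detected on 0 Fibroblasts arrays and Cdc25c on 1. For the first 6 only a bound can be given, the Control-NSC mean over, on each Fibroblasts array, the higher of the lowest detected signal and the probe's own. On that basis Control-NSC was at least 5.35-fold higher for Ccna2, at least 4.53-fold higher for Espl1, at least 2.94-fold higher for Pttg1, at least 2.31-fold higher for Ttk and at least 2.18-fold higher for Cdc25b. These genes passed the detection filter only through the neural stem cell groups. The remaining Fibroblasts levels were detected, among them Cdk1 at 7.39 and 7.44, Plk1 at 7.77 and 7.68, Aurka at 6.71 and 6.57 and Cdc20 at 8.63 and 8.37, all below every neural stem cell array of the same gene.

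A second look came from 11 further kept probes of Birc5, Cdc20, Cdc25c, Cdk1, Foxm1 and Kif4, fitted with all kept probes. In 106 of 132 pairs of probe and comparison the call was the same as that of the gene's brightest probe, in 26 only one of them was called, and in 0 were they called in opposite directions. For Foxm1 the second probe passed in the lung line, with a log2 change of 0.76 (adjusted p = 0.00538), where the brightest probe had missed. The call for Foxm1 in the lung line thus depended on the probe. The same held for Kif4 in the lung line and for Cdc20, Cdk1 and Kif4 between the early groups, where no further probe was called. It also held for Cdk1 against Control-NSC in elpNSCs-early, alpNSCs-early and the pNSC mean (adjusted p = 0.951 and 0.580 for the mean, limma). For late against early in the limb line, a further probe of Cdk1 (0.0637) and one of Kif4 (0.0651) missed, while their other further probes passed. Other such pairs are not listed here.

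Other genes of mitosis, taken from a list of 117 of which 84 were tested, were also mostly higher in late cultures. In elpNSCs-late 50 of the 84 (59.5%, against 11.7% of all genes) were higher and 1 lower (against 12.1%) than in elpNSCs-early, with a median of 0.68. In alpNSCs-late 17 (20.2%, against 2.11% of all genes) were higher and 0 lower (against 2.72%) than in alpNSCs-early, with a median of 0.37. Kif18b, a motor that shortens astral microtubules, averaged 8.23 ± 0.23 in elpNSCs-late and 6.61 ± 0.042 in elpNSCs-early, and 8.18 ± 0.04 in alpNSCs-late and 7.43 ± 0.059 in alpNSCs-early (SD, n = 2 each). Sgo1 (shugoshin), which guards centromeric cohesin, rose by 1.26 in the limb line (adjusted p = 2.01e-05), and Pbk, a mitotic kinase, rose in both, by 1.17 and 0.75. By role, 19 of 24 other centromere, kinetochore and checkpoint genes, 13 of 21 other spindle, centrosome and cytokinesis genes, 8 of 14 condensin and cohesin genes and 10 of 25 other entry and exit regulators rose in the limb line. The averaged pNSC groups were lower than Control-NSC for 36 of the 84 (42.9%, against 9.75% of all genes) and higher for 1 (against 9.93%), with a median of -0.28.

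DNA replication genes, which act in the preceding S phase, were higher in late cultures of the limb line for most of the list. In elpNSCs-late 34 of 38 (89.5%, against 11.7% of all genes) were higher and 0 lower (against 12.1%), with a median of 0.77. In alpNSCs-late 4 (10.5%, against 2.11% of all genes), namely Fen1, Mcm10, Rrm1 and Tk1, were higher and 0 lower (against 2.72%). The median there was 0.35, with 37 of 38 differences above 0. In the direct test of the lines the change was smaller in the lung line for 4 of the 38 (10.5%, against 2.47% of all genes). Cdc6, which loads the replicative helicase, averaged 9.44 ± 0.058 in elpNSCs-late and 7.96 ± 0.027 in elpNSCs-early, and 8.92 ± 0.016 in alpNSCs-late and 8.64 ± 0.038 in alpNSCs-early (SD, n = 2 each). Its late-early change was smaller in the lung line (alpNSCs minus elpNSCs, log2 -1.21, adjusted p = 0.00205). In the mean of the pNSC groups 6 of the 38 (15.8%, against 9.75% of all genes) were lower than in Control-NSC, with a median of -0.18.

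**Figure D4:**
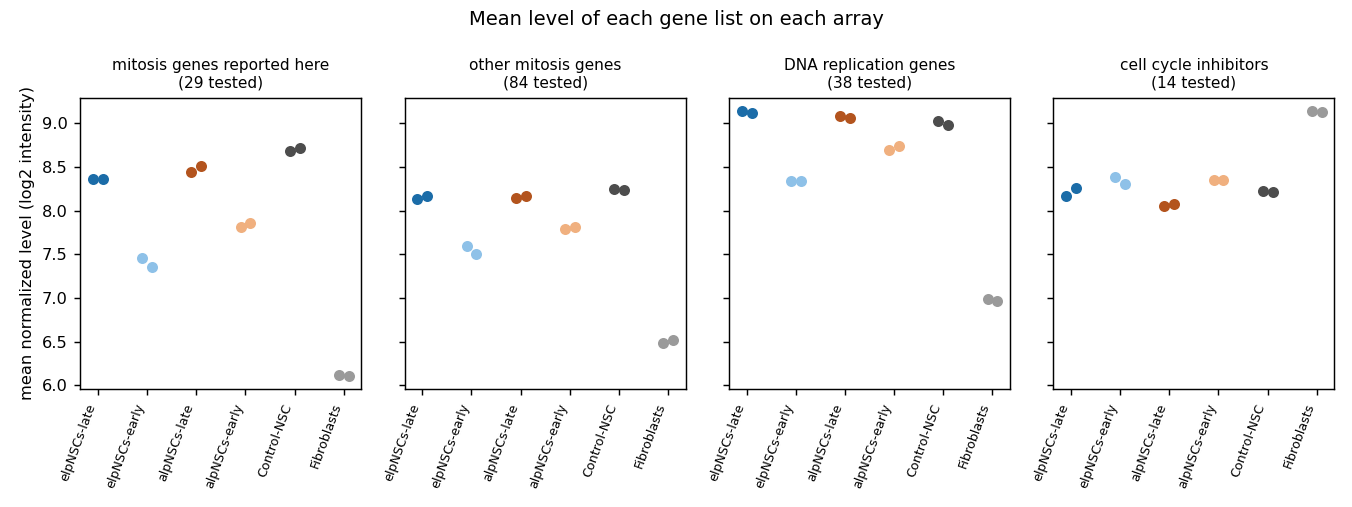
Mean normalized log2 intensity of 4 gene lists on each array (points, 2 per group); the axis does not start at 0, and levels of different lists rest on different probes and are not compared. The 29 mitosis genes, the 84 other mitosis genes and the 38 DNA replication genes are lowest in Fibroblasts and next lowest in elpNSCs-early, while the 14 cell cycle inhibitors are highest in Fibroblasts.

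Cell cycle inhibitors, of which 14 were tested, moved in both directions. Cdkn1a (p21), a CDK inhibitor induced by p53, averaged 10.26 ± 0.13 in elpNSCs-late and 11.59 ± 0.12 in elpNSCs-early (2.51-fold lower, adjusted p = 1.06e-05), against 10.44 ± 0.028 in Control-NSC (SD, n = 2 each). Ccng1 and Gadd45a, also p53 targets, fell in the limb line, with log2 changes of -0.86 and -0.80. Cdkn2b (p15) averaged 5.49 ± 0.01 in alpNSCs-late and 8.39 ± 0.16 in alpNSCs-early (7.45-fold lower, adjusted p = 3.01e-08). Cdkn2a, which encodes p16 and p19ARF, fell 3.0-fold in the lung line (adjusted p = 7.46e-05). The late-early change differed between the lines for Cdkn2b (-2.47, adjusted p = 6.57e-06) and for Cdkn1a (0.97, adjusted p = 0.00453), both as alpNSCs minus elpNSCs. In all, 6 of the 14 (42.9%, against 12.1% of all genes) were lower and 1, Cdkn2d, was higher (against 11.7%) in elpNSCs-late than in elpNSCs-early. In alpNSCs-late 3 (21.4%, against 2.72% of all genes) were lower and 2, among them Cdkn2c, were higher (14.3%, against 2.11%) than in alpNSCs-early, with 7 differences above 0, 7 below and a median of 0.0078.

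Of the 8 fibroblast markers, 1, Thy1, was lower in elpNSCs-late than in elpNSCs-early (12.5%, against 12.1% of all genes) and 0 were higher (against 11.7%). Thy1, in the fibroblast list but also present in Control-NSC at 9.12 ± 0.094, averaged 4.23 ± 0.027 in elpNSCs-late and 7.0 ± 0.067 in elpNSCs-early (SD, n = 2 each), at least 4.86-fold lower in late cultures (adjusted p = 1.41e-08), and was detected on 0 late and 2 early arrays. The mean level of the 8 fibroblast markers was 4.49 and 4.49 on the elpNSCs-late arrays and 4.79 and 4.85 on the elpNSCs-early arrays, against 11.2 on both Fibroblasts arrays. Of these markers Col1a1, Col1a2, Col3a1, Dcn and Lum were detected on 0 elpNSCs arrays. In the lung line 0 of the 8 were detected at either stage. Their part in the late-early change of the mitosis genes was not tested.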

How the data were processed

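RNA from 12 samples was hybridised to single-colour Illumina mouse bead arrays, 1 sample per array. The authors deposited raw bead intensity values per probe with a detection p-value from the scanner software (BeadStudio 3.2), and log2 values that the submitters' processing notes link to RMA and lumi. Slide and scan batches are not given in the sources used here. Raw intensity was background-corrected and quantile-normalized with neqc in limma 3.58.1 (R 4.3.3, offset 16) and put on a log2 scale. Of 25697 probes, 14006 with a gene symbol were detected (p under 0.05) on at least 2 arrays. Each gene was represented by its kept probe with the highest mean, which gave 10144 genes, and 2738 of these had more than 1 kept probe.

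One limma model (lmFit, eBayes) of the 6 groups was fitted over the 12 arrays for 12 comparisons, so all groups share the estimate of spread (6 residual and 5.82 prior degrees of freedom), and p-values were adjusted by Benjamini-Hochberg over all 10144 genes. An adjusted p under 0.05 is a call. The script was tested on simulated data. Array values are given for leads of a role (Cdk1, Plk1, Aurka, Cdc20, Kif11, Top2a, Foxm1) and for up to 10 of the largest called changes of a comparison with no overlap between arrays; of the other lists, up to 4 genes with the smallest p. Further array values were chosen after they were seen. The mitosis genes and the other lists were chosen with earlier results of these data known. Alternatives were the deposited log2 values, offset 50, no background correction, median scaling, other detection filters, a fit on all kept probes, a trended robust prior, a replicate block, fits on only the arrays compared and leaving out each array. Array number limits the precision. Promoter windows came from RefSeq (GRCm38.p6).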

Additional observations from a re-analysis of the deposited data

Results flagged for a closer look

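For 2 genes the late-early change differed between the lines by a direct test. Cdk1 changed by 0.58 in alpNSCs and by 1.46 in elpNSCs, a difference of -0.88 (alpNSCs minus elpNSCs, log2, adjusted p = 0.0334 in limma). Mad2l1 rose by 0.57 in alpNSCs and by 1.33 in elpNSCs, a difference of -0.76 (adjusted p = 0.0185). For Cdk1 the adjusted p ranged from 0.018 to 0.131 over the alternatives, and for Mad2l1 from 0.00462 to 0.0824.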

How the results depend on the processing

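With 2 arrays per group, precision was limited by the number of arrays, and dim probes by signal over background. The counts of called genes stayed within 1.5 times of those given under the planned settings except as follows. With the deposited log2 values, 0 genes differed between the lines in the late-early change (2 in the main analysis), 5 were lower in elpNSCs-late (8) and 1 in alpNSCs-late (3) than in Control-NSC, and 6 were higher in alpNSCs-early than in elpNSCs-early (13). With only the arrays compared, 0 differed in the late-early change and 1 between the early groups. The late-early difference passed for 4 genes with median scaling and for 1 with no detection filter. Without background correction 5 genes were lower in alpNSCs-late than in Control-NSC. Between the late groups, where 0 passed, 1 gene passed with offset 50, without background correction, with the trended robust prior and with the replicate block.

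Same-numbered arrays deviated from their group means together at r = -0.15 to 0.24, so the numbers were not taken to pair the arrays, and the replicate block moved no other count beyond 1.5 times. The lowest r was between the early groups of the 2 lines, and a block with the alpNSCs-early numbers crossed, chosen after seeing the data, called 13 genes between those groups, the same count as without it.

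Leaving out each array in turn gave 22 to 25 genes for late against early in elpNSCs and 7 to 22 in alpNSCs, 0 to 4 for the difference between lines, and 0 to 1 and 5 to 12 for alpNSCs against elpNSCs at the late and the early stage. Against Control-NSC it gave 5 to 9 in elpNSCs-late, 25 to 27 in elpNSCs-early, 1 to 4 in alpNSCs-late, 21 to 24 in alpNSCs-early and 20 to 24 for the pNSC mean. Against Fibroblasts it gave 28 to 29 for Control-NSC and 27 to 29 for the pNSC mean. The 1 gene between the late groups appeared without elpNSCs-late replicate 2. Over named genes, 101 of the leave-one-out calls were lost, 12 were gained and 0 turned direction, and under the other planned settings 49 were lost, 17 gained and 0 turned. Median scaling moved the median of all genes to 0.15 for late against early in elpNSCs, relative to which the median of the mitosis genes was 1.18. The cause of these shifts was not tested.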
